A study of Arabidopsis thaliana with 21 samples.

Results

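The aquaporins of Arabidopsis thaliana are a family of 35 genes for membrane channels, chosen here by their gene identifiers from the 32833 genes of the count table. They form 4 subfamilies, with 13 plasma membrane intrinsic proteins (PIP), 10 tonoplast intrinsic proteins (TIP), 9 NOD26-like intrinsic proteins (NIP) and 3 small basic intrinsic proteins (SIP). Their transcripts were followed in roots treated with AtCEP5, one of the CEP peptides, short hormone-like signals that plants secrete. RNA-seq libraries were made from roots before treatment (0 h) and 6, 12 and 24 h after the start of mock or AtCEP5 treatment, with 3 libraries in each of the 7 groups and 21 in all. The labels name no accession, genotype, plant age or peptide dose, so the groups differ on record only in treatment and time. Whether replicates came from separate cultures or plants is not stated, so p-values measure the spread between these libraries, which may be technical.

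Aquaporins are tetramers in which each subunit forms its own pore, and the pore is lined by a pair of short conserved boxes that meet in the middle of the membrane. In roots the PIPs carry much of the water that crosses cell membranes on its way to the xylem, and PIP1 proteins generally need a PIP2 partner to reach the plasma membrane. TIPs equilibrate water and small solutes such as ammonia and urea between cytosol and vacuole. NIPs conduct metalloids such as boric acid and arsenite more than water, and SIPs reside in the endoplasmic reticulum.

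The 57 coding bases around the first pore box are shown for 10 members on which the results turn, because this stretch shows both what the family shares and how far close pairs differ. They were read from the TAIR10.1 reference in the direction of the gene, with the 9 bases of the box in capitals. In the PIP genes the stretch spans an intron, so that the coordinates enclose more bases than are shown.
PIP1;1 (AT3G61430, chr3:22733972-22734292, plus strand): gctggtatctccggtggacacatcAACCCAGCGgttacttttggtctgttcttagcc
PIP1;3 (AT1G01620, chr1:226648-226861, minus strand): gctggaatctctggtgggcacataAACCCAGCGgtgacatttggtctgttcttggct
PIP2;2 (AT2G37170, chr2:15614326-15614503, minus strand): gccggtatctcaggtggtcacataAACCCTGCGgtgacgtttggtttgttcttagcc
PIP2;3 (AT2G37180, chr2:15618067-15618244, plus strand): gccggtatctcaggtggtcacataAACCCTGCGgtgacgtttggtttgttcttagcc
TIP2;3 (AT5G47450, chr5:19249188-19249244, minus strand): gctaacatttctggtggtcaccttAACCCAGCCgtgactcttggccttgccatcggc
TIP4;1 (AT2G25810, chr2:11012976-11013032, plus strand): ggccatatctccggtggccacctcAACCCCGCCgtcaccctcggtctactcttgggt
NIP1;1 (AT4G19030, chr4:10422926-10422982, minus strand): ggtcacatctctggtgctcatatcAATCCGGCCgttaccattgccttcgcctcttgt
NIP5;1 (AT4G10380, chr4:6432345-6432401, minus strand): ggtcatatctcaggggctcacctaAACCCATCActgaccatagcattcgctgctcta
NIP6;1 (AT1G80760, chr1:30351473-30351529, minus strand): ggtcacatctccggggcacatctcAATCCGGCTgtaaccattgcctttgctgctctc
SIP1;2 (AT5G18290, chr5:6056162-6056218, minus strand): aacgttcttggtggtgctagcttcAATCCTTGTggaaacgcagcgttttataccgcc

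All of these boxes begin with AACCC or AATCC, and the endings differ, with ATCA in NIP5;1 and TTGT in SIP1;2. The windows of PIP2;2 and PIP2;3 are identical. These neighbours on chromosome 2 share 94.8% of their coding bases, and 22.0% of the 50-base stretches of the first and 21.7% of those of the second occur in both. Their counts can therefore be split between them by the counting, and each is reported as uncertain on its own.

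Per the labels the tissue was root and the cells were those of the root meristem. The 6 meristem markers PLT1, PLT2, WOX5, SHR, SCR and CYCB1;1 summed to 85.6 to 128 CPM per library (counts scaled to library size) and none was at 0 in a group. Root hair, endodermis and xylem markers were also present, with endodermis sums of 89.8 to 210 CPM, so that the libraries held RNA of mature root cells too. In bulk RNA, fewer cells of a type and less RNA per cell cannot be told apart. A library taken before treatment stood apart in photosynthesis markers, whose 4-gene sum was 447 CPM there and 53.9 to 151 CPM in the libraries taken after treatment. Marker values were summarised by group, so its replicate number is not given. The third library taken before treatment was the highest of its group for 19 of the 29 aquaporins tested, and the first was the lowest for 23. Such ranks were not computed over all genes. Counts without either library are given beside the comparisons with the start. Total counts ran from 10334319 to 14345476 reads per library.

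Aquaporin transcripts took between 0.961 and 1.51% of all reads before treatment. In the mock libraries they took 0.571 to 0.773% at 6 h, 0.649 to 0.740% at 12 h and 0.679 to 0.900% at 24 h. With AtCEP5 the range was 0.699 to 0.854% at 6 h, 0.824 to 0.951% at 12 h and 0.879 to 0.953% at 24 h. Every library taken after treatment lay below every library taken before it, and at 12 h all AtCEP5 libraries lay above all mock libraries. The PIP share was 0.630 to 0.967% before treatment, and at 12 h 0.405 to 0.476% in mock and 0.563 to 0.670% with AtCEP5. One library of AtCEP5 at 12 h and one at 24 h, with 0.670 and 0.641%, lay above the lowest of those before treatment. The NIP share ran the other way, with 0.0245 to 0.0257% in mock and 0.0151 to 0.0170% with AtCEP5 at the same time.

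**Figure D1:**
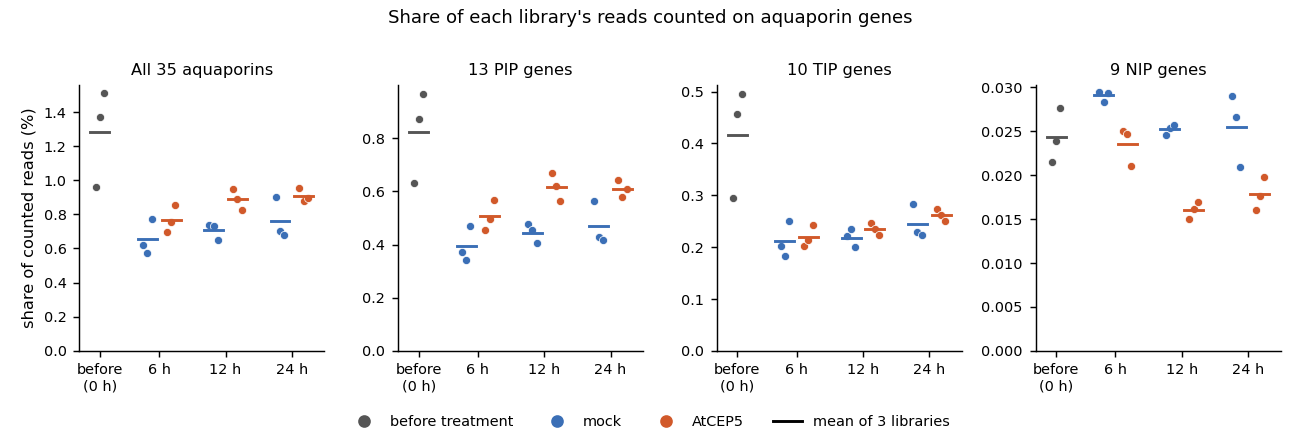
Percent of all reads that fell on aquaporin genes, for the whole family and for the PIP, TIP and NIP genes (panels), by time on the horizontal axis. Each point is a library and each line the mean of 3. The whole family stood at 0.961 to 1.51% before treatment and at 0.571 to 0.953% in the libraries taken after it.

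Levels differed widely across the family. Per length, in FPKM (counts scaled to gene length and library size, mean of the 21 libraries), PIP2;1 (AT3G53420, a main contributor to root water permeability) was highest at 865, rank 56 of all genes. It was followed by the tonoplast water channel TIP1;1 (AT2G36830) at 741, then AT2G37170 at 699.8 and TIP1;2 (AT3G26520) at 634. AT3G61430, PIP1;2 (AT2G45960) and AT1G01620 came next at 518, 512 and 389 FPKM, ahead of TIP2;2 (AT4G17340) at 374. PIP2;7 (AT4G35100) and PIP1;5 (AT4G23400) had 236 and 146 FPKM. The ranges over libraries of neighbours in this order overlapped, as with AT3G61430 at 292 to 881 and AT2G45960 at 328 to 1121 FPKM, so the order within such a pair is not firm.

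The middle of the family lay between 50.9 and 120 FPKM. It held AT5G47450, AT2G37180, TIP2;1 (AT3G16240), PIP2;4 (AT5G60660), SIP1;1 (AT3G04090), AT2G25810, PIP1;4 (AT4G00430), SIP2;1 (AT3G56950), AT4G19030 and the boric acid channel AT4G10380. A low set had 0.335 to 11.6 FPKM, in falling order NIP1;2 (AT4G18910), NIP3;1 (AT1G31885), PIP2;8 (AT2G16850), AT5G18290, PIP2;6 (AT2G39010), AT1G80760, NIP4;2 (AT5G37820), PIP2;5 (AT3G54820) and NIP2;1 (AT2G34390).

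The remaining 6 genes had too few reads for the test. TIP1;3 (AT4G01470) and TIP5;1 (AT3G47440), both known from pollen, had 7 and 0 reads in all 21 libraries. The seed genes TIP3;1 (AT1G73190) and TIP3;2 (AT1G17810) had 2 and 3 reads. NIP4;1 (AT5G37810) had 0 and NIP7;1 (AT3G06100), known from anthers, had 27. The pollen marker stood at 0 to 0.625 CPM and the seed markers summed to 0 to 0.494 CPM. The filter thus left 29 of the 35 members, all PIPs and SIPs, 6 TIPs and 7 NIPs.

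**Figure D2:**
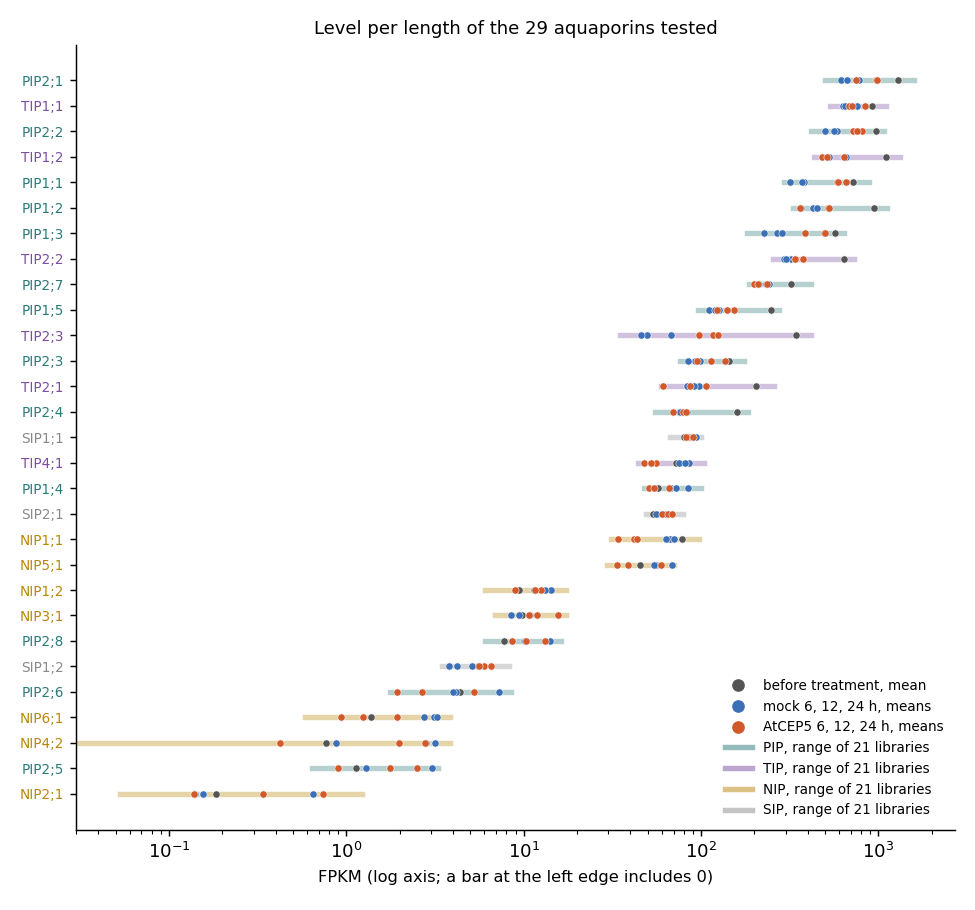
FPKM on a log axis for the 29 aquaporins tested, ordered by mean level. Points are the 7 group means and bars the range of the 21 libraries, coloured by subfamily. Means over all libraries ran from 865 down to 0.335 FPKM.

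The comparison of AtCEP5 with mock asks which root transcripts change with the peptide. Members of the PIP and TIP subfamilies passed in both directions, and NIPs passing at a single time in the fit of all 21 libraries were lower with AtCEP5. In other fits AT1G31885 was called higher at 6 h and 12 h, as given with its values. At 6 h 3 members were higher and 4 lower, where 5.94 and 5.33% of all 19938 genes were called in these directions. At 12 h 3 were higher and 5 lower (6.71 and 5.41% of all genes). At 24 h 3 were higher and 3 lower (3.7 and 4.12% of all genes). Averaged over the 3 times 8 were higher and 6 lower (14.8 and 15.5% of all genes). Calls are at an adjusted p under 0.05 by edgeR's quasi-likelihood test over all genes, and changes are log2 fold changes ± standard error. The median member changed by −0.08, 0.14 and 0.08 at the 3 times and by −0.06 in the average, against medians of 0.01, −0.02, 0.00 and 0.00 over all genes tested. Without the third AtCEP5 library the 6 h count was 2 members, and without the second it was 3, while the genes called of all tested numbered 1234 and 1329 in place of 2247. Without the first or second mock library at 6 h it was 4, with 1426 and 1629 genes called in all. The 12 h count was 5 without the third mock or the first AtCEP5 library of that time, with 1566 and 1443 genes called in place of 2417. The 24 h count was 3 without the second mock library or the first or second AtCEP5 library, with 1065, 980 and 1003 genes called in place of 1558.

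The replicate numbers met the pairing rule at 6 h, a minimum correlation that differently numbered libraries also met at 24 h. Meeting it therefore does not by itself show pairing. With the number as a block in a fit of the 6 libraries of that time, 12 members passed in place of 7, 5 of them higher and 7 lower, while the genes called of all tested went from 2247 to 4802. The 5 gained were PIP2;2, PIP2;6, TIP2;1, NIP3;1 and NIP5;1, with adjusted p of 0.00174, 0.0202, 0.00229, 0.0165 and 0.0438 (edgeR).

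**Figure D3:**
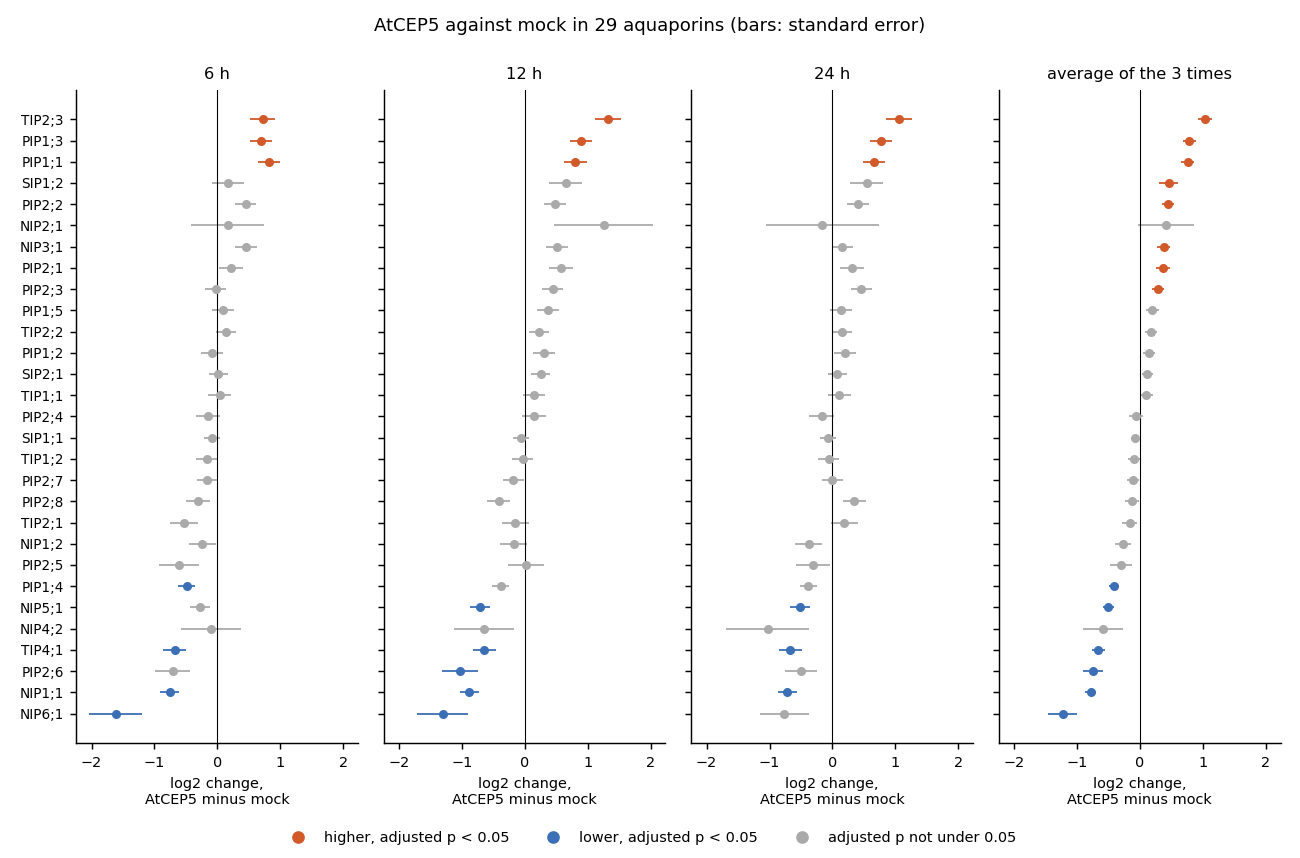
Log2 fold change of AtCEP5 against mock for the 29 tested aquaporins at 6, 12 and 24 h and in the average of the 3 times, ordered by the average, with bars of 1 standard error. Coloured points passed the test and grey points did not, and in the average 8 of those that passed lie above 0 and 6 below.

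PIP1;1 (AT3G61430, chr3:22733243-22735394, plus strand) encodes a plasma membrane channel of the PIP1 group. It had 844, 1146 and 1341 CPM before treatment. In the mock libraries it had 463, 475 and 613 CPM at 6 h, 612, 653 and 507 at 12 h and 742, 487 and 493 at 24 h. With AtCEP5 it had 835, 864 and 1034 CPM at 6 h, 976, 1006 and 1112 at 12 h and 973, 853 and 895 at 24 h. All AtCEP5 libraries lay above all mock libraries of their time and within or near the range before treatment. The difference from mock was 0.82 ± 0.18 at 6 h, 0.80 ± 0.18 at 12 h and 0.66 ± 0.18 at 24 h, with adjusted p of 0.0035, 0.00334 and 0.0207 (edgeR). In the average it was 0.76 ± 0.10 (adjusted p = 4.92e-06). The 24 h call was lost in fits without the second or the third mock library (adjusted p 0.127 and 0.0894) or the first or second AtCEP5 library (0.099 and 0.0508). It was also lost in fits of the 6 libraries of that time, alone (0.076) or with the replicate block (0.0698, edgeR).

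PIP1;3 (AT1G01620, chr1:225665-227543, minus strand) is a second PIP1 gene with the same order of groups. Before treatment its libraries had 729, 983 and 900.2 CPM. Mock libraries had 331, 293 and 476 CPM at 6 h, 469, 397 and 378 at 12 h and 500.4, 389.9 and 438 at 24 h. AtCEP5 libraries had 483, 589 and 709 CPM at 6 h, 843, 789 and 671 at 12 h and 833, 681 and 753 at 24 h. No AtCEP5 library fell into the mock range of its time, although at 6 h the gap was narrow, between 476 and 483 CPM. The gene was higher than in mock by 0.70 ± 0.17, 0.89 ± 0.18 and 0.77 ± 0.17 at the 3 times, with adjusted p of 0.0112, 0.00134 and 0.00677 by edgeR. The average was 0.79 ± 0.10 (adjusted p = 2.94e-06). The 6 h call was lost without the first or second mock library (adjusted p 0.0713 and 0.0743) or the third AtCEP5 library (0.106), and the 24 h call without the second mock library (0.0535).

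PIP1;2 and PIP1;5 passed neither at a single time nor in the average in the fit of all 21 libraries. PIP1;2, whose coding sequence is 87.6% identical to that of AT3G61430, had 548, 560.2 and 718 CPM in mock and 522, 559 and 644 CPM with AtCEP5 at 6 h. At 12 h it had 575 to 756 CPM in mock and 776 to 921 with AtCEP5, with no overlap. At 24 h the groups of PIP1;2 overlapped. Its average difference was 0.14 ± 0.10 with an adjusted p of 0.316 (edgeR). PIP1;5 had an average difference of 0.20 ± 0.10 (adjusted p = 0.152 by edgeR), and an adjusted p of 0.0312 without the first mock library of 24 h. At 12 h it was called higher, at 0.37, in a fit of the 6 libraries alone (adjusted p = 0.0454, edgeR). Its libraries did not overlap then, with 143 to 166 CPM in mock and 191 to 217 with AtCEP5, but did at 6 h and 24 h.

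PIP1;4 moved the opposite way (chr4:185285-187680, minus strand). It had 96.1, 118 and 128 CPM before treatment. In mock it had 123, 139.8 and 161 CPM at 6 h, 144, 153 and 133 at 12 h and 208, 157 and 140.0 at 24 h, and with AtCEP5 107, 95.7 and 99.6, then 112, 106 and 111, then 131, 127 and 127. The AtCEP5 libraries were below the mock libraries at every time. The difference was −0.49 ± 0.14 at 6 h (adjusted p = 0.0241, edgeR) and −0.39 ± 0.14 at both 12 h and 24 h, where adjusted p was 0.0712 and 0.0948. In the average it was −0.42 ± 0.08 (adjusted p = 0.000308). The 6 h call was lost without the second or the third mock library (adjusted p 0.0565 and 0.126) or the second or the third AtCEP5 library (0.118 and 0.0732), and a 24 h call was gained without the third mock library (0.0269). A 12 h call was gained in a fit of the 6 libraries alone (0.0341).

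Among the PIP2 genes, which form water channels on their own, 3 were higher in the average and passed at no single time in the fit of all 21 libraries. PIP2;1 (chr3:19803473-19805730, minus strand) had 1566, 2061 and 2429.9 CPM before treatment. At 12 h, the time of its largest difference, it had 1147, 1019 and 941 CPM in mock and 1785, 1495 and 1337 with AtCEP5. Its libraries did not overlap then, but overlapped at 6 h, with 949, 820.3 and 1255 against 1009, 1202 and 1319, and at 24 h, with 1604, 1085 and 977 against 1556, 1394 and 1589. The differences were 0.22, 0.57 and 0.31, and the average was 0.37 ± 0.11 (adjusted p = 0.0141, edgeR). At 12 h the adjusted p was 0.0541 with edgeR and 0.0252 with DESeq2, and it was 0.0385 by edgeR without the third AtCEP5 library. It was 0.0483 by edgeR with no filter on low counts. In edgeR fits of the 6 libraries alone it was 0.0114, or 0.00636 with the replicate block.

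PIP2;2 had 1088, 1349.9 and 1419 CPM before treatment. Mock libraries had 633, 584 and 890.0 CPM at 6 h, 842, 806 and 699 at 12 h and 992, 662 and 627 at 24 h. AtCEP5 libraries had 875, 907 and 1091, then 1152, 1093 and 1032, then 1065, 929 and 1024. They were all higher at 12 h and overlapped mock by 1 library at 6 h and at 24 h. The average was 0.44 ± 0.10 (adjusted p = 0.0015, edgeR). Calls at 6 h and 24 h were gained without the mock library that overlapped (adjusted p 0.0212 and 0.0251). With the replicate block the 6 h difference was 0.47 and passed (adjusted p = 0.00174, edgeR). At 12 h the gene passed with DESeq2 (adjusted p = 0.0393) and in edgeR fits of the 6 libraries alone (0.0142, or 0.0164 with the block). Its neighbour AT2G37180 had 106, 111 and 90.8 CPM in mock and 155, 139 and 127 with AtCEP5 at 12 h, and 111, 103 and 140.2 against 98.5, 109.7 and 139.5 at 6 h. At 24 h it had 137, 114 and 106 in mock and 188, 159.8 and 144 with AtCEP5, after 136, 176 and 208 CPM before treatment. At 12 h it passed in edgeR fits of the 6 libraries alone (adjusted p = 0.0298, or 0.0269 with the block). Its average was 0.29 ± 0.10 (adjusted p = 0.0246, edgeR). That call was lost, with adjusted p of 0.0513 to 0.0709, in 6 fits that left out 1 library, namely the second mock or the third AtCEP5 library of 6 h, the third mock or first AtCEP5 library of 12 h, or the third mock or first AtCEP5 library of 24 h.

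PIP2;6 (chr2:16291280-16294101, plus strand) was lower with AtCEP5, at a level far below those of the genes above. It had 6.76, 6.27 and 15.0 CPM before treatment, 8.27, 7.60 and 12.0 in mock at 6 h, 8.08, 8.28 and 9.09 at 12 h and 19.1, 14.4 and 13.2 at 24 h. With AtCEP5 it had 6.83, 4.37 and 5.86 CPM, then 3.94, 4.55 and 3.93, then 10.01, 12.6 and 10.3. The AtCEP5 libraries were the lower ones at every time. The call was made at 12 h, at −1.03 ± 0.28 (adjusted p = 0.017, edgeR), and in the average, at −0.75 ± 0.16 (adjusted p = 0.000772). The former was lost without the third mock library (adjusted p 0.0728) or the first or the third AtCEP5 library (0.0742 and 0.0539). The remaining PIP2 genes AT5G60660, AT3G54820, AT4G35100 and AT2G16850 passed at no time and not in the average, in that fit or in any alternative run.

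TIP2;3 (AT5G47450, chr5:19248249-19249622, minus strand), a tonoplast channel that conducts ammonia as well as water, had the largest positive difference of the family in the average. Before treatment it had 343, 368 and 475 CPM. In mock it had 81.5, 81.1 and 85.1 CPM at 6 h, 70.8, 59.8 and 43.6 at 12 h and 74.2, 48.0 and 39.2 at 24 h. With AtCEP5 it had 119, 134 and 155 CPM at 6 h, 159.9, 151 and 126 at 12 h and 122, 87.4 and 126 at 24 h. The 3 sets of libraries formed separate layers at each time, with mock lowest, AtCEP5 between and the start highest. Against mock the gene was higher by 0.72 ± 0.20 at 6 h, 1.33 ± 0.21 at 12 h and 1.05 ± 0.21 at 24 h, with adjusted p of 0.024, 0.00012 and 0.0019 (edgeR). The average was 1.03 ± 0.12 (adjusted p = 5.95e-07). The 6 h call was lost in 5 of the 6 fits that left out 1 library of that time, all but that without the first AtCEP5 library, with adjusted p of 0.0539 to 0.144.

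TIP4;1 (AT2G25810, chr2:11012499-11014171, plus strand), another tonoplast channel found mainly in roots, was lower with AtCEP5. It had 56.5, 89.6 and 105 CPM before treatment. In mock it had 102, 80.7 and 130.3 CPM at 6 h, 88.1, 88.2 and 87.5 at 12 h and 115, 87.8 and 82.6 at 24 h. With AtCEP5 it had 70.3, 65.1 and 60.1, then 51.0, 57.5 and 59.96, then 59.5, 60.6 and 59.6. No library of the treatments overlapped at any time, while the range before treatment reached into both. The differences were −0.68 ± 0.18, −0.65 ± 0.18 and −0.67 ± 0.18, with adjusted p of 0.0166, 0.0212 and 0.0242 by edgeR, and −0.67 ± 0.11 in the average (adjusted p = 3.97e-05). At 6 h the call was lost without the third mock or the second or the third AtCEP5 library (adjusted p 0.0645 to 0.118). At 12 h it was lost without any 1 of the mock libraries or the first or second AtCEP5 library (0.0616 to 0.103). At 24 h it was lost without the first mock library or any 1 of the AtCEP5 libraries (0.054 to 0.143). The replicate block in a fit of the 6 libraries of 24 h lost it too (0.0779, edgeR).

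AT3G16240 and AT4G17340 of the same TIP2 group passed at no time against mock in the fit of all 21 libraries. The first had 98.6, 86.6 and 127 CPM in mock and 73.9, 70.6 and 71.2 with AtCEP5 at 6 h, a difference of −0.53 ± 0.22 with an adjusted p of 0.126 (edgeR). Fits of the 6 libraries of that time alone called it lower, at −0.53 (adjusted p = 0.0187, edgeR) and with the replicate block at −0.52 (0.00229). The average of the second was 0.17 ± 0.09, with an adjusted p of 0.172, or 0.0155 without the first mock library of 24 h.

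NIP1;1 (AT4G19030, chr4:10421521-10423508, minus strand), known for arsenite and antimonite uptake, was lower with AtCEP5 at every time. It had 93.0, 107 and 139 CPM before treatment. Mock libraries had 102, 91.1 and 112 CPM at 6 h, 95.7, 89.0 and 89.6 at 12 h and 119.7, 105 and 79.6 at 24 h. AtCEP5 libraries had 62.2, 62.7 and 56.2 CPM, then 44.3, 48.1 and 56.4, then 62.3, 57.9 and 65.4. Every AtCEP5 library lay below every mock library of its time and below every library taken before treatment. The differences from mock were −0.75 ± 0.15, −0.88 ± 0.15 and −0.71 ± 0.15, with adjusted p of 0.00194, 0.000349 and 0.00376 (edgeR). The average was −0.78 ± 0.09 (adjusted p = 3.88e-07). The 24 h call was lost with the replicate block in a fit of the 6 libraries of that time (adjusted p = 0.0800, edgeR).

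NIP5;1 (AT4G10380, chr4:6431161-6435396, minus strand), the boric acid channel of the root surface, started at 90.0, 98.6 and 104 CPM. In mock it had 155, 153 and 159 CPM at 6 h, 115, 121 and 127 at 12 h and 143, 114 and 94.6 at 24 h. With AtCEP5 it had 145, 133 and 107, then 67.7, 72.7 and 80.1, then 63.6, 83.6 and 98.5. The 12 h libraries were far apart, and at 24 h 1 AtCEP5 library lay above the lowest mock library. The difference was −0.28 ± 0.15 at 6 h (adjusted p = 0.286), −0.72 ± 0.16 at 12 h (adjusted p = 0.00309) and −0.52 ± 0.16 at 24 h (adjusted p = 0.0411, all edgeR), and −0.50 ± 0.09 in the average (adjusted p = 0.000153). The 24 h call was lost without the first or second mock library (adjusted p 0.232 and 0.0785) or the first or second AtCEP5 library (0.249 and 0.107). It was also lost in fits of the 6 libraries of that time, alone (0.204) or with the replicate block (0.340). With the block in the fit of all 21 libraries it was lost too (0.059, all edgeR).

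NIP6;1 (AT1G80760, chr1:30350539-30352208, minus strand), a boric acid channel known from shoot nodes, was a low gene with 9 to 65 reads per library. It had 0.885, 1.17 and 2.91 CPM before treatment, 4.59, 3.44 and 2.33 in mock at 6 h, 2.95, 3.84 and 4.55 at 12 h and 3.59, 3.93 and 4.22 at 24 h. AtCEP5 libraries had 1.97, 0.702 and 0.723 CPM, then 1.47, 1.73 and 1.34, then 1.89, 2.06 and 2.95. They were lower than mock at all 3 times. The differences were −1.62 ± 0.42 (adjusted p = 0.014), −1.31 ± 0.40 (adjusted p = 0.0346) and −0.76 ± 0.38 (adjusted p = 0.277, all edgeR), and the average was −1.23 ± 0.23 (adjusted p = 0.000298). The 6 h call was lost without the first mock library or the second or the third AtCEP5 library (adjusted p 0.0825 to 0.0849). The 12 h call was lost in every fit that left out 1 library of that time except that without the first mock library (0.0764 to 0.14). The gene overlaps AT1G80750 on the other strand by 26 exon bases, 2.15% of its own. That gene, at 59.0 to 132 CPM, changed by −0.55 at 6 h and −0.37 at 12 h, both called, and its part in the result was not tested.

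NIP3;1 was the passing NIP that was higher. It had 15.5, 12.0 and 14.5 CPM before treatment and 15.1, 18.0 and 15.9 in mock at 6 h, against 19.2, 24.7 and 23.3 with AtCEP5. At 12 h it had 12.0, 13.1 and 11.2 against 16.8, 17.1 and 17.7, and at 24 h 17.0, 14.3 and 9.51 against 15.8, 13.9 and 15.7. The groups were apart at 6 h and 12 h and overlapped at 24 h, and the average was 0.37 ± 0.10 (adjusted p = 0.00573, edgeR). At 12 h it was also called higher with DESeq2 (adjusted p = 0.0371) and in edgeR fits of the 6 libraries alone (0.0325, or 0.0436 with the replicate block). At 6 h it was called with the block (0.0165). SIP1;2, of the endoplasmic reticulum group, had 5.36, 6.13 and 4.82 CPM in mock and 9.27, 9.76 and 6.43 with AtCEP5 at 12 h. At 24 h it had 5.86, 4.33 and 4.502 against 9.35, 5.59 and 6.46, and at 6 h 7.18, 7.09 and 6.39 against 6.33, 6.17 and 10.7, after 9.66, 6.68 and 4.96 before treatment. Only the 12 h libraries stood apart, and the average was 0.45 ± 0.15 (adjusted p = 0.0259, edgeR). That call was lost, with adjusted p of 0.0504 to 0.0886, without the third AtCEP5 library of 6 h, the third mock or the first or second AtCEP5 library of 12 h, or the first AtCEP5 library of 24 h.

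**Figure D4:**
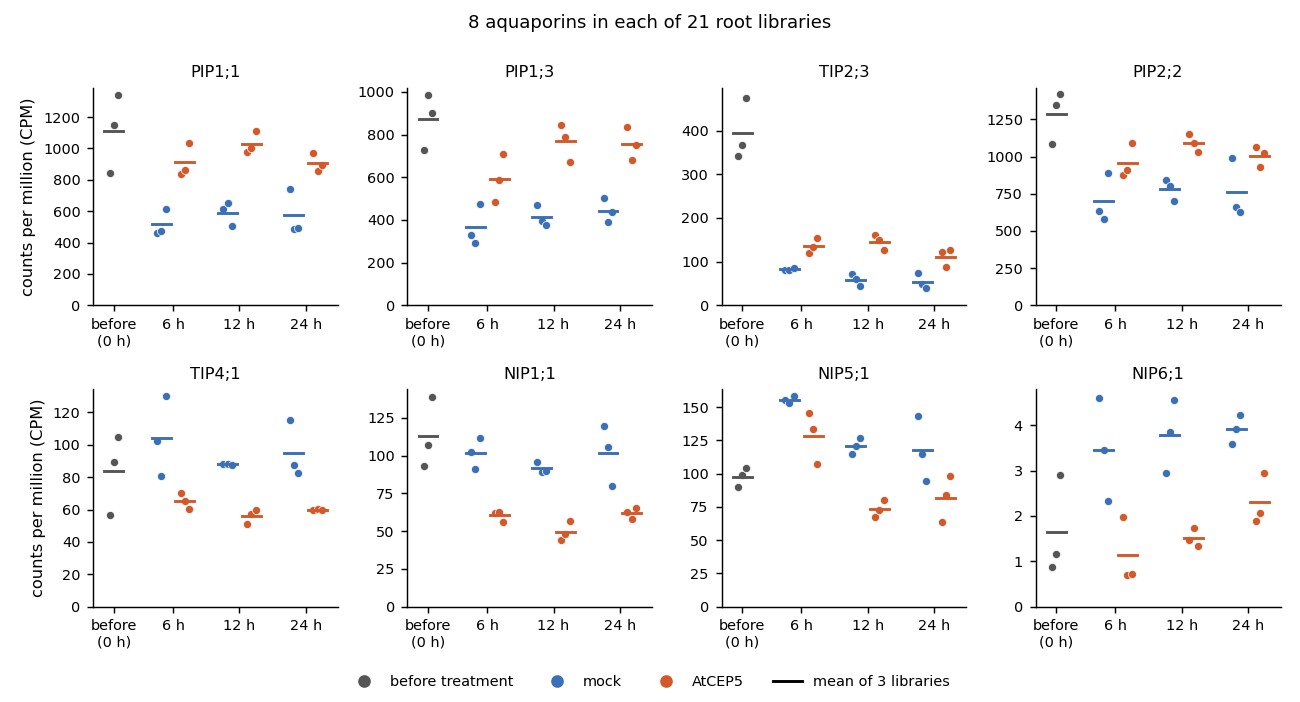
CPM (vertical axes, from 0) of 8 members called against mock in the average, by time, with 1 point per library and a line at the mean of 3. For NIP1;1 the AtCEP5 points (44.3 to 65.4 CPM) lie below all mock points (79.6 to 119.7 CPM).

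Root hair markers, taken as a sum, moved with these comparisons. EXPA7, COBL9 and RHD6 summed to 98.8 to 120 CPM in mock and 63.8 to 82.4 CPM with AtCEP5 at 6 h, to 83.9 to 97.8 against 73.2 to 82.7 at 12 h and to 81.7 to 124 against 76.0 to 84.6 at 24 h, with none of the 3 at 0. Of the 3, 2 were called lower at 6 h, 1 at 12 h and 2 in the average. Of the 6 root meristem markers WOX5 was called higher at 24 h, with 4.26 to 6.95 CPM in mock and 7.71 to 11.3 with AtCEP5, and in the average, where CYCB1;1 was called lower. No endodermis, xylem or photosynthesis marker was called. The part of these markers in the aquaporin differences was not tested. Libraries of a group also differed in level across many members. The first mock library at 24 h was the highest of its group for 26 of 29 members and the third mock library at 6 h for 24. For how many of all genes these libraries were the highest was not computed. A shift of the whole library therefore cannot be told apart from one of the family. Without the first mock library at 24 h, 5 members passed at that time, 4 of them higher and 1 lower. The genes called of all tested then numbered 1032 in place of 1558.

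Whether the AtCEP5 difference itself changed with time was tested as a difference of differences. By edgeR none of the 29 members passed for 12 h against 6 h, for 24 h against 6 h or for 24 h against 12 h, where 0.00502, 0.01 and 0.015% of all genes did. DESeq2 called none of the members either. At an unadjusted p under 0.05 there were 1, 2 and 1 members, or 3.45, 6.9 and 3.45%, against 3.79, 4.1 and 4.02% of all genes. The lowest unadjusted p belonged to AT5G47450 for 12 h against 6 h and to PIP2;8 in the other 2. The latter had 24.2, 17.3 and 20.5 CPM in mock and 15.0, 16.8 and 14.5 with AtCEP5 at 12 h, and 14.4, 14.4 and 16.2 against 20.7, 18.7 and 17.9 at 24 h. Its groups thus stood in opposite order at these times, with no overlap at either, and the difference was 0.77 ± 0.27 before adjustment for the number of genes.

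The 250 bases before the annotated start are shown for the 5 genes that were called at all 3 times, 3 of them higher and 2 lower with AtCEP5, because members that move together invite a look at shared letters. They are TAIR10.1 sequence in the direction of the gene. Capitals mark matches on either strand to AGATT, the core bound by type-B response regulators, or to TTGAC, the core of the W-box.
AT3G61430 (chr3:22732993-22733242, plus strand): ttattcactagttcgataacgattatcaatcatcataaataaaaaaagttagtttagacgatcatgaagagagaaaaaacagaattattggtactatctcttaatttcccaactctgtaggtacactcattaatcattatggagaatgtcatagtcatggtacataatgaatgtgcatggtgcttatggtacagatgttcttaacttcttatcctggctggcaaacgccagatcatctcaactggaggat
AT1G01620 (chr1:227544-227793, minus strand): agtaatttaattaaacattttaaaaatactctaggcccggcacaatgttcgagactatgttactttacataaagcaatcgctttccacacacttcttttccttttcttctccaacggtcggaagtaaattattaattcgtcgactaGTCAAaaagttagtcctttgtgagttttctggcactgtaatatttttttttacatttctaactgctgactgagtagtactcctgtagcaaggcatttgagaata
AT5G47450 (chr5:19249623-19249872, minus strand): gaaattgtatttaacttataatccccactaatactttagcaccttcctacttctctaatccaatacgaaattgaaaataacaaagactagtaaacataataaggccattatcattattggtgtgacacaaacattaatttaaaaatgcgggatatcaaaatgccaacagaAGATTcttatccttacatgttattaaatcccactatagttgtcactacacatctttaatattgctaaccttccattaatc
AT2G25810 (chr2:11012249-11012498, plus strand): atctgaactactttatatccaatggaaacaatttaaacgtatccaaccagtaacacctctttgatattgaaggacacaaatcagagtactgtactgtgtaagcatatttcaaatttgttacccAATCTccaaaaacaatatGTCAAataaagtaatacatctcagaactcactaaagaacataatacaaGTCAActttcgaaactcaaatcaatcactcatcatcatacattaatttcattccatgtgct
AT4G19030 (chr4:10423509-10423758, minus strand): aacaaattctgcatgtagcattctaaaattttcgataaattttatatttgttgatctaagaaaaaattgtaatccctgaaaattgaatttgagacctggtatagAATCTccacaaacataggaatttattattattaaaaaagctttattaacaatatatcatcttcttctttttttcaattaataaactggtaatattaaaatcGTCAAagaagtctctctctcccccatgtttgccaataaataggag

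AGATT occurred in 22 of the 35 aquaporin windows, and in 63.7% of the 27443 windows of protein-coding genes. TTGAC occurred in 19 of the 35, against 44.9% of all windows. The 2 lower genes, TIP4;1 and NIP1;1, hold both motifs. Of the 3 higher genes PIP1;3 holds TTGAC, TIP2;3 holds AGATT and PIP1;1 holds neither. The auxin response element core TGTCTC occurred in 1 aquaporin window, that of SIP2;1, against 10.9% of all windows, and the G-box CACGTG in 0 of the 35, against 6.49%. Of the 14 members that passed in the average, 7 held AGATT and 7 held TTGAC. A match is a match of letters only, and the motifs do not overlap each other in the windows shown.

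The comparison of mock with the start places these differences. After 6 h 9 of the 13 PIPs and 5 of the 6 TIPs tested were lower in mock than before treatment, and none of either subfamily was higher. All comparisons with the start share the 3 libraries taken before treatment, and the mock comparisons share the mock libraries with those above. Over the family 5 members were higher and 14 lower at 6 h, where 18.2 and 20.5% of all genes were. At 12 h 3 were higher and 13 lower (17.7 and 19.7% of all genes), and at 24 h 4 and 13 (16.6 and 18.5%). All members called lower at these times were PIPs or TIPs, 8 and 5 at 12 h and 9 and 4 at 24 h. The NIPs that passed, 5, 2 and 1 at the 3 times, were all higher. The median member changed by −0.15, −0.38 and −0.26, against −0.03, −0.01 and −0.01 over all genes tested. Without the third library taken before treatment the counts were 16, 15 and 16 members in place of 19, 16 and 17, while the genes called of all tested numbered 6971, 6635 and 6216 in place of 7724, 7455 and 6996. Without the first library taken before treatment the counts were 17, 17 and 16 members, with 6929, 6047 and 5562 genes called.

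Markers of other root cells and of shoot moved with the mock comparison as well. Of the 2 endodermis markers 1, 1 and 2 were called lower at the 3 times, and their sum went from 161 to 210 CPM before treatment to 142 to 171, 118 to 149 and 92.3 to 163 CPM. Of the 3 photosynthesis markers tested 3, 3 and 1 were called lower. A library taken before treatment lay far above the others of its group in these. Before treatment CAB3 had 0.413 to 67.5 CPM with a median of 1.29, and RBCS1A 97.3 to 317 with 119. Their mock medians at 24 h were 1.17 and 113 CPM. LHCB2.1 had 5.39 to 24.8 CPM before treatment and 1.32 to 3.09 in mock at 6 h. The root hair marker RHD6 was called higher at 6 h, the meristem marker CYCB1;1 higher at all 3 times and PLT1 lower at 24 h, and the xylem marker was not called. With AtCEP5 the endodermis markers were called lower in the same numbers, and the photosynthesis markers in 2, 2 and 3. No defining marker of these lists was at 0 in a group, and their part in the aquaporin changes was not tested.

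The largest decrease of the family in mock was that of TIP2;3 at each time, at −2.26 ± 0.21 at 6 h, −2.77 ± 0.22 at 12 h and −2.88 ± 0.22 at 24 h on the log2 scale, with adjusted p of 3.65e-08, 4.35e-09 and 2.71e-09 (edgeR). PIP1;2 had 1086, 1621 and 1751 CPM before treatment, then 548, 560.2 and 718 at 6 h, 756, 704 and 575 at 12 h and 873, 637 and 632 at 24 h in mock. The change was −1.29 ± 0.18 and −1.13 ± 0.17 at the first 2 times, and AT1G01620 changed by −1.25 ± 0.18 at 6 h. PIP2;4 changed by −1.08 ± 0.19 at 12 h, from 191, 235 and 259 CPM to 117, 107 and 99.9. At 24 h AT3G16240 changed by −1.14 ± 0.22, from 138, 278 and 301 to 147, 91.5 and 88.3 CPM, so that its groups overlapped by 1 library. AT4G17340 changed by −1.09 ± 0.16, from 684, 937 and 964 to 536, 349 and 333 CPM with no overlap.

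The 3 largest increases at each time were those of members with low levels. NIP4;2, a channel known from pollen, had 1.61, 0.757 and 0.315 CPM before treatment, 3.01, 3.54 and 3.72 at 6 h, 3.42, 4.51 and 3.08 at 12 h and 1.33, 1.02 and 0.715 at 24 h. It rose by 1.93 ± 0.54 and 2.03 ± 0.53 at 6 h and 12 h, and was back in its first range at 24 h. NIP2;1, which is induced by oxygen shortage, had 0.161, 0.207 and 0.394 CPM and then 1.002, 1.22 and 0.605 at 6 h, from 2 to 12 reads per library, a rise of 1.85 ± 0.70 (adjusted p = 0.0403, edgeR). Of its 50-base stretches 63.3% occur in other genes, 1 of them on the opposite strand of the same locus, so its count is uncertain. Its call was lost with DESeq2 (adjusted p 0.0609) and without the first or second library of either group (0.0944 to 0.119).

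The boric acid channel gene AT1G80760 rose by 1.06, 1.19 and 1.24 at the 3 times. These calls were lost without the first or second library taken before treatment (adjusted p 0.0753 to 0.161), that at 6 h also without the first or second mock library (0.186 and 0.0711), and that at 12 h without the third mock library (0.084). The overlapping gene AT1G80750 rose by 1.09, 0.87 and 0.66 in the same comparisons, all called, and its part was not tested. PIP2;5 rose by 1.42 ± 0.29 at 24 h, from 1.69, 2.48 and 1.89 to 6.17, 5.08 and 5.07 CPM (adjusted p = 0.000618, edgeR), and AT2G39010 by 0.74 at the same time (adjusted p = 0.0281). The latter call was lost without the first or second library taken before treatment or the first mock library (0.112 to 0.143). PIP2;8 rose by 0.86 ± 0.19 at 12 h, from 9.09, 16.2 and 8.74 to 24.2, 17.3 and 20.5 CPM. The groups of AT2G39010 overlapped, and those of the other pair did not.

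With AtCEP5 the counts against the start were 3 higher and 12 lower at 6 h, where 13.1 and 14.6% of all genes were called. They were 0 and 11 at 12 h (10.5 and 13.2%) and 2 and 9 at 24 h (12.8 and 15.2%). For the 0 at 12 h, DESeq2 called 1 member higher. Without the third library taken before treatment 12, 8 and 11 members passed in place of 15, 11 and 11, with 4649, 3674 and 4680 genes called of all tested in place of 5527, 4718 and 5583. Without the first library taken before treatment 18, 13 and 13 members passed, with 4527, 3969 and 4338 genes called. Among the genes higher than mock, PIP1;1 had differences from the start of −0.29, −0.11 and −0.29, none of them called, and PIP1;3 had −0.55, −0.18 and −0.20, of which the 6 h value was called (adjusted p = 0.021, edgeR). It was no longer called without the second or the third library taken before treatment or the first or second AtCEP5 library (adjusted p 0.0619 to 0.143). TIP2;3 had −1.54, −1.44 and −1.82, all called. Among those lower than mock, NIP1;1 was called below the start at all 3 times, at −0.90, −1.19 and −0.87, where in mock its differences of −0.15, −0.30 and −0.15 were not called. TIP4;1 was called below the start with AtCEP5 at 12 h, at −0.58 (adjusted p = 0.0249), a call lost without the second or the third library taken before treatment or any 1 of the AtCEP5 libraries (0.0511 to 0.187).

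**Figure D5:**
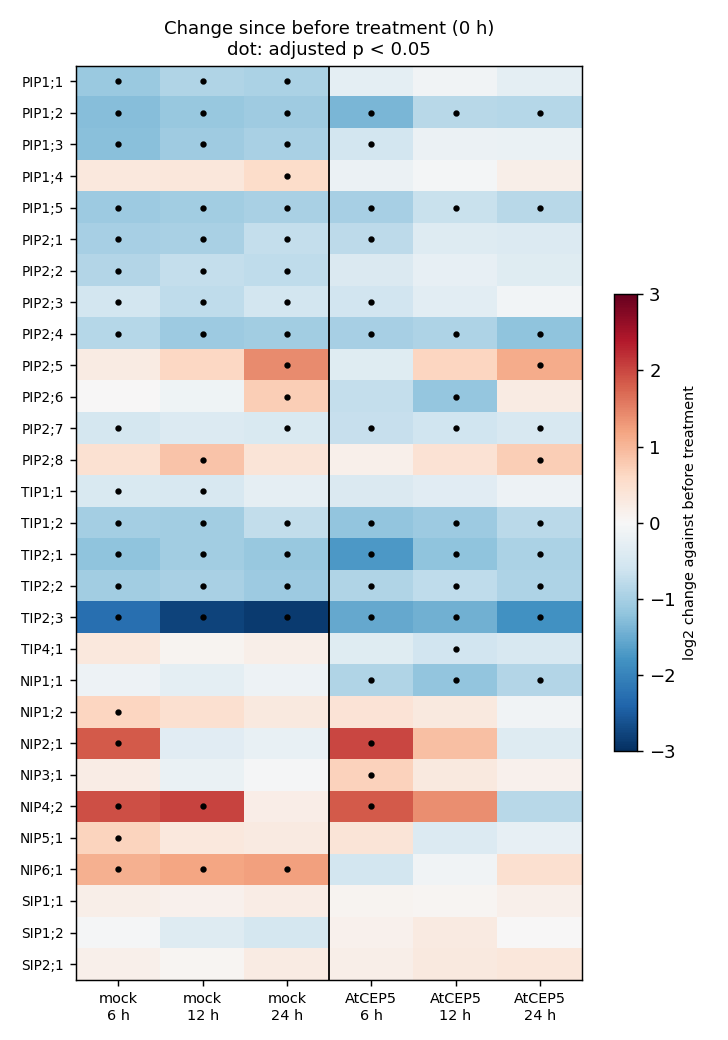
Log2 fold change against the libraries taken before treatment (colour, blue lower and red higher) for the 29 aquaporins tested (rows) in mock and AtCEP5 at 3 times (columns), with a dot where the adjusted p was under 0.05. The darkest row is TIP2;3, at −2.26 to −2.88 in mock and −1.44 to −1.82 with AtCEP5.

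Genes that act with aquaporins were described from 3 lists. Of 14 regulators and partners 2, 2 and 1 were higher with AtCEP5 than with mock at the 3 times and 3 in the average, and none was lower, with medians of 0.08, 0.05, 0.01 and 0.03. The share of all genes called higher was 5.94, 6.71, 3.7 and 14.8% in these comparisons. The 3 were the RMA ubiquitin ligases, of which RMA1 is known to hold PIP2;1 back in the endoplasmic reticulum and mark it for degradation. RMA2 (AT4G28270) was higher by 1.34 ± 0.27, 2.098 ± 0.27 and 1.16 ± 0.26, with adjusted p of 0.00184, 1.34e-05 and 0.0057 (edgeR). RMA1 (AT4G03510) was higher by 1.47 ± 0.23 at 12 h and RMA3 (AT4G27470) by 0.84 ± 0.24 at 6 h, with adjusted p of 0.000119 and 0.0233. In mock 5, 8 and 5 of the 14 were lower than before treatment and none was higher, where 20.5, 19.7 and 18.5% of all genes were lower and 18.2, 17.7 and 16.6% higher.

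Of the 7 borate exporters, which move out of the cell the boric acid that NIPs let in, 5 were tested. BOR1 (AT2G47160), which loads borate into the xylem, had 52.1, 58.9 and 59.9 CPM in mock and 138, 139 and 122 with AtCEP5 at 6 h. At 12 h it had 82.2, 79.7 and 69.9 against 93.2, 111 and 152, and at 24 h 66.6, 77.3 and 72.4 against 157, 147 and 132, after 47.3, 55.5 and 57.5 before treatment. The AtCEP5 libraries were higher at each time, by 1.22 ± 0.15, 0.62 and 1.01 ± 0.15 with adjusted p of 9.13e-06, 0.00574 and 8.14e-05 (edgeR), whereas NIP5;1 and NIP6;1 were lower in the average. BOR4 was called lower in the average, at −0.36, and BOR5, a gene of few reads, was also called lower. Of 15 proton pumps, whose gradient drives secondary transport, 13 were tested. AHA3 was higher at 6 h by 0.53 (adjusted p = 0.0426, edgeR), AHA7 was called lower at 12 h and 24 h, at −0.71 and −0.90, and the other 11 were not called at a single time. Against mock 5.94, 6.71 and 3.7% of all genes were called higher at the 3 times, and 5.33, 5.41 and 4.12% lower. In the average 14.8% were higher and 15.5% lower. In mock 2, 6 and 6 of the 13 pumps were higher than before treatment and 1 was lower at each time, AHA3. Of the 5 borate exporters 1, 3 and 3 were higher and none was lower. Of all genes 18.2, 17.7 and 16.6% were higher in these comparisons and 20.5, 19.7 and 18.5% lower.

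Of the 35 members 8 overlap another gene, each on the opposite strand, and 7 of these share exon bases with it. Whether reads were counted by strand is not given in the sources used here. Among members called against mock these are AT1G80760, described above, and AT5G18290, which shares 0 exon bases with its neighbours.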

How the data were processed

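Poly-A RNA libraries were made from root RNA that was extracted with TRIzol and treated with DNase, per the labels' protocols. The authors deposited read counts per gene, FPKM values and gene lengths. The submitters' processing notes list HTSeq with no version, StringTie 2.1.3 and STAR 2.7.8a. No source used here gives the genome build or the strand of counting. All 461492 deposited FPKM values above 0 were 10 times the FPKM recomputed from the deposited counts and lengths, so they were divided by 10. All 35 aquaporins had the same start and end in the TAIR10.1 RefSeq annotation, which gave names, coordinates and sequences.

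The deposited counts were tested with edgeR 4.0.16 (quasi-likelihood, R 4.3.3) with TMM scaling and its filter on low counts by group. The fit held 21 libraries, 7 group means and 14 residual degrees of freedom. Benjamini-Hochberg adjustment ran over all 19938 genes tested, and adjusted p under 0.05 was called. The edgeR fit was checked on simulated counts with known changes in AtCEP5 at 6 h, read against mock at that time. The other comparisons and settings were not checked in this way. CPM are counts scaled with TMM factors. The members and lists were chosen with earlier results of these data known. All 35 members are named, with values per library for those passing against mock and for the 3 largest changes each way since the start. From each list up to 3 passing genes with the smallest adjusted p are named per comparison.

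Pairing was checked by correlating deviations from the group means across genes between AtCEP5 and mock libraries of the same replicate number, which comes from the sample titles. At 6 h the correlations were 0.182, 0.117 and 0.241, all above the minimum of 0.1. At 12 h they were 0.0301, −0.0495 and 0.0296 and at 24 h −0.194, 0.0919 and −0.14. Differently numbered libraries correlated at −0.191 to 0.00323 at 6 h. At 24 h some passed the minimum, as AtCEP5 library 1 with mock library 2 (0.241), 2 with 3 (0.176) and 3 with 1 (0.354). Alternatives were DESeq2 1.42.0, its size factors, no filter, a replicate block, fits of 6 libraries and leaving out each library.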

Additional observations from a re-analysis of the deposited data

How the results depend on the processing

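There were 5144 recomputed values for the 377 tests of single members. Of these 4929 kept their side of the threshold, 160 no longer passed, 55 newly passed and 0 reversed. Direction was compared only where the main fit or the alternative called the member. Values that neither called may therefore have changed sign. The average over the 3 times gave 14 aquaporins in every alternative that kept all libraries, and 12 to 17 with 1 library left out. The genes called of all tested were 5696 to 6306 and 5268 to 6064 there, in place of 6032.

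The single times depended more on the libraries used. At 6 h the replicate block in a fit of the 6 libraries alone gave 12 members in place of 7, and leaving out 1 library gave 2 to 7, while the genes called of all tested were 4802 and 1234 to 1909 in place of 2247. At 12 h the fit of 6 libraries alone gave 14 in place of 8, and leaving out 1 library gave 5 to 7, with 2691 and 1443 to 2529 genes called in place of 2417. At 24 h the replicate block in a fit of 6 libraries gave 2 in place of 6, and leaving out 1 library gave 3 to 6, with 3 members without the second mock library or without the first or second AtCEP5 library. The genes called there were 600 with that block and 980 to 1632 with 1 library left out, in place of 1558. For mock at 24 h against the start the fit of 6 libraries gave 11 in place of 17, with 4285 genes called of all tested in place of 6996. The cause was not tested. With the replicate block in the fit of all 21 libraries the counts were 7, 8, 5 and 14. The genes called of all tested then numbered 2107, 2254, 1419 and 5814. At 12 h and 24 h same-numbered libraries did not deviate together.

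Calls against mock that held in all alternatives run were those of PIP1;1 and NIP1;1 at 6 h and 12 h, PIP1;3 at 12 h, TIP2;3 at 12 h and 24 h and NIP5;1 at 12 h. Those of the average held too, except for PIP2;3 and SIP1;2. Members with few reads, such as NIP2;1 and NIP4;2, are limited by depth.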
